A study of Mus musculus with 12 samples.

Results

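Adiponectin (Adipoq), its binding partner T-cadherin (Cdh13) and 3 other hormones of fat tissue, leptin (Lep), resistin (Retn) and adipsin (Cfd), were followed across RNA of mouse aorta. The 5 genes were picked by name, from their place in adipokine biology, and the rule used no measured value. It was set with earlier results of these data known. All 5 were among the 3532 genes analysed. Of these, 1659 reached at least 1 FPKM (fragments scaled by transcript length and by the size of the library) in at least 3 libraries and were tested across the table. Adipoq, Cdh13, Retn and Cfd were 4 of them, and Lep was not.

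The series holds mRNA sequencing of aorta in 4 groups with 3 deposited files each. HSAPN mice carried an APPL1 knockdown and were fed a high-fat diet. HAPN and HFD mice were wild type and fed the same diet. WT mice were wild type on a standard diet. The high-fat diet drew 60% of its energy from fat and was given for 12 weeks, with the stated aim of inducing type 2 diabetes. The sources used here do not explain the titles HAPN and HSAPN, nor do they give the difference between HAPN and HFD, the way APPL1 was knocked down, or the strain, sex and age of the animals. The knocked-down gene, Appl1, was not analysed here, and neither were Adipor1, Adipor2 and Lepr, so the knockdown was not checked in these libraries. HFD replicates 1 and 2 were deposited with identical values and were counted as 1 library, written HFD 1/2 here, which left 11 distinct libraries (3 HSAPN, 3 HAPN, 2 HFD and 3 WT). The labels do not say whether the replicates came from separate animals, so p-values measure only the spread between these libraries.

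Adiponectin is secreted by mature fat cells and circulates as multimers. APPL1 is an adaptor protein that links the adiponectin receptors to signalling inside the cell. T-cadherin is an unusual cadherin that is anchored in the membrane by a lipid and has no cytoplasmic tail, and it binds the larger adiponectin multimers on endothelial and smooth muscle cells. Leptin reports fat stores to the brain, resistin is a fat cell product in mice, and adipsin is complement factor D, the serine protease that starts the alternative complement pathway. The aorta is wrapped in perivascular fat, so RNA from the vessel can contain RNA from that fat.

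Low values returned whole reads when FPKM was multiplied by the exonic length of a gene. Between 96.1 and 97.2% of values of up to 20 reads were within 0.1 of a whole number, at a scale of 15610000 to 17840000 reads per library. At that depth, 0.0561 to 0.0641 FPKM corresponds to a single read per kb of exon. Of 15 smooth muscle markers listed, 12 were in the table and 11 were tested. Acta2 stood at 146 to 1607 FPKM, Cnn1 at 23.9 to 437 FPKM and Myh11 at 15.5 to 236 FPKM. Tagln did not reach 1 FPKM in 3 libraries. Of 15 endothelial markers 1, Mmrn2, was in the table, at 1.16 to 9.71 FPKM, so the level of endothelial RNA could not be followed. Fat cell markers were present in all 4 groups. Their sum over 33 genes was 216 to 304 FPKM in HSAPN, 212 to 381 FPKM in HAPN, 231 to 1380 FPKM in HFD and 232 to 847 FPKM in WT. Of the 33, 1 was at 0 in HAPN 3 and none in the other libraries. The sums include genes that varied little, such as Cebpa at 41.6 to 68.5 FPKM. In HAPN 3, Plin1 stood at 0.206, Car3 at 0.757, Cidec at 2.20 and Fabp4 at 2.41 FPKM. In HFD 3 the same genes stood at 0.0129, 0.902, 2.40 and 2.10 FPKM. Ucp1, the uncoupling protein of brown fat, was at 0 in HSAPN 3 and WT 1 and at 9.03 FPKM in HFD 1/2.

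All 5 genes are protein coding and lie on the forward strand (GRCm38, GENCODE M21). Adipoq lies at chr16:23146536-23158028, Cfd at chr10:79890853-79892655, Retn at chr8:3655770-3660110, Lep at chr6:29060220-29073877 and Cdh13 at chr8:118283733-119324921. The files count over exons, which sum to 1381 bases in Adipoq, 922 in Cfd, 1579 in Retn, 3354 in Lep and 11233 in Cdh13. The levels of all 5 genes varied together over the libraries, and promoters are shown for that reason, as 250 bases before to 50 bases after the transcription start. The reference used held no promoter of Cdh13, so those of Adipoq, Cfd, Retn and Lep are given. The sequences are RefSeq's (GRCm38.p6), on the forward strand, 5′ to 3′, at chr16:23146286-23146585 for Adipoq, chr10:79890603-79890902 for Cfd, chr8:3655520-3655819 for Retn and chr6:29059971-29060270 for Lep. Capitals mark the motifs found.
Adipoq: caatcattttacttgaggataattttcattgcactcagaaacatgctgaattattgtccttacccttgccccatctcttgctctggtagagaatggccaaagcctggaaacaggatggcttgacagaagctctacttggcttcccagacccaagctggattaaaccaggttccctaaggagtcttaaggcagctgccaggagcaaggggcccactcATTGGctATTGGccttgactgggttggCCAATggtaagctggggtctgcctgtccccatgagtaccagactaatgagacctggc
Cfd: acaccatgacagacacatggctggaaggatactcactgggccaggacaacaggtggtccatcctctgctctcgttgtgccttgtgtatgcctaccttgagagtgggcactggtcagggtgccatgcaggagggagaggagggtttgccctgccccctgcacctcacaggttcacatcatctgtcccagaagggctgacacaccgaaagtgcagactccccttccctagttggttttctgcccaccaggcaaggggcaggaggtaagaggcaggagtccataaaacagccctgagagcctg
Retn: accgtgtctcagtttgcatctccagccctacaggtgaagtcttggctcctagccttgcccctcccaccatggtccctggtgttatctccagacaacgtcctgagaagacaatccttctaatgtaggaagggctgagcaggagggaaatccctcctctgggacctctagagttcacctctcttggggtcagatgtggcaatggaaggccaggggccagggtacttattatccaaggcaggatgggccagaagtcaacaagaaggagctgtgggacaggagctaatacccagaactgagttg
Lep: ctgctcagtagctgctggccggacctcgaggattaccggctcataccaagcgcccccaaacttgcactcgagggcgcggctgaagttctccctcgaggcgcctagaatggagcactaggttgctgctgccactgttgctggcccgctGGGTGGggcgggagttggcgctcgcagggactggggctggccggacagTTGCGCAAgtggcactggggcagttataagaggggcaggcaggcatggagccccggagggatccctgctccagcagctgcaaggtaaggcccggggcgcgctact
Motifs known from fat cell and general promoters were searched on both strands. They were AGGTCA, the core recognised by many nuclear receptors, TTGCGCAA, a palindrome recognised by C/EBP proteins, and CCAAT, the box recognised by the factor NF-Y. Next came CACGTG, the palindromic E-box of basic helix-loop-helix factors, TATAAA, the element that binds the general initiation machinery, and CCACCC, a site of Krüppel-like factors. No match overlapped another. The Adipoq window held CCAAT 3 times, starting 7 bases before the start on the same strand and 27 and 34 bases before it on the opposite strand. The Lep window held TTGCGCAA 55 bases before the start and CCACCC on the opposite strand 103 bases before it. Among 32817 promoter windows of this length, CCAAT was in 37.4%, CCACCC in 31.5%, AGGTCA in 16.3%, TATAAA in 13.6%, CACGTG in 7.1% and TTGCGCAA in 0.2%. The Retn and Cfd windows held none of the 6 motifs. A match is a description of the letters, and the windows were 66% G and C in Lep, 57.7% in Cfd, 54% in Retn and 50% in Adipoq.

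The secreted fat hormones varied widely between libraries of the same group, and for none of the 5 genes did a difference between groups pass its test. Adipoq, Cfd and Retn were highest in HFD 1/2 and lowest in HAPN 3, both wild type and on the high-fat diet. Cdh13 varied much less, and like the hormones it was highest in HFD 1/2. Over the table, Cfd ranked 29, Adipoq 309, Retn 638, Cdh13 986 and Lep 2300 of 3532 genes by mean FPKM over the 11 libraries.

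HSAPN libraries 1 to 3 held 0.533, 2.27 and 4.06 FPKM of Adipoq, and HAPN libraries 1 to 3 held 3.39, 15.8 and 0.0923 FPKM. In HFD it stood at 92.6 FPKM in HFD 1/2 and 0.174 FPKM in HFD 3, and in WT at 2.44, 9.44 and 53.8 FPKM. The HSAPN libraries spanned 7.61-fold, and WT 1 and HAPN 1 lay within their range. WT 3 and HFD 1/2 stood above all others, and HAPN 3 and HFD 3 were nearly without the transcript, so every pair of groups overlapped. The value in HAPN 3 rests on 2 reads and that in HFD 3 on 4, against 2024 reads in HFD 1/2. HFD 1/2 held 1003-fold more Adipoq than HAPN 3, with a 95% exact interval of 277 to 8287 that covers counting error only. Group means were 2.29 ± 1.76 FPKM in HSAPN (SD, n = 3), 6.42 ± 8.27 FPKM in HAPN (SD, n = 3), 46.4 ± 65.4 FPKM in HFD (SD, n = 2) and 21.9 ± 27.8 FPKM in WT (SD, n = 3). The order of means was HFD, WT, HAPN, HSAPN, and no neighbours in it differed beyond their spread.

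**Figure D1:**
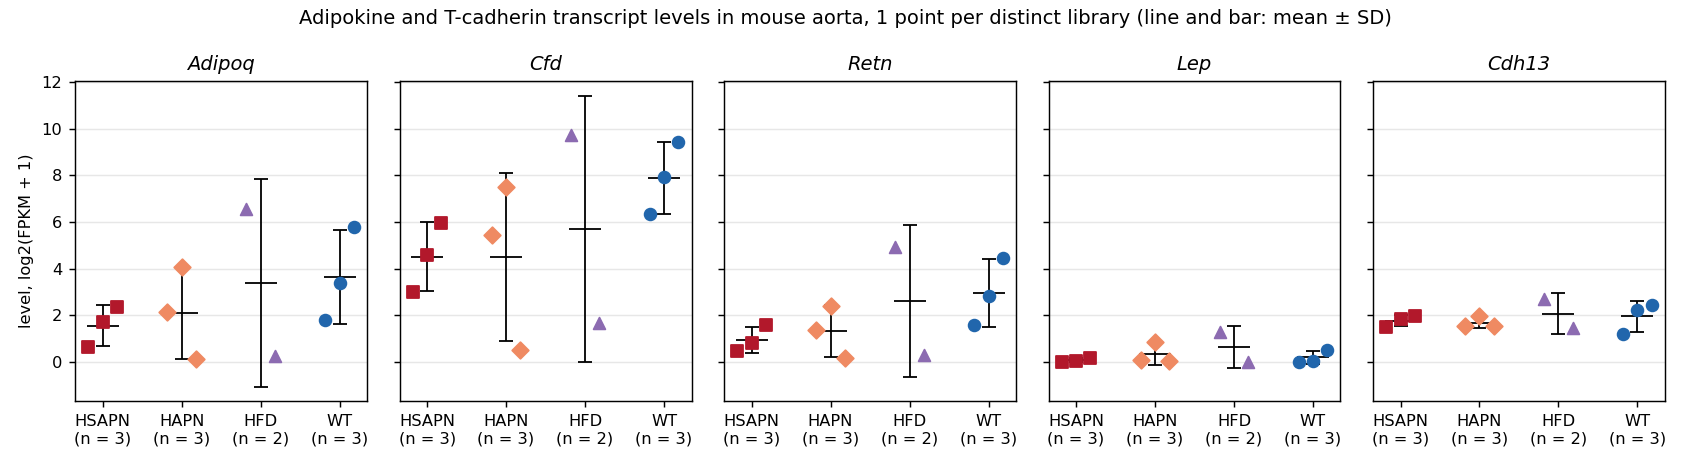
Level of each gene as log2(FPKM + 1) in each distinct library, by group; horizontal lines are group means and bars 1 SD (n = 3, and n = 2 for HFD). Adipoq, Cfd and Retn spread over most of the axis within groups, while Cdh13 stayed between 1.26 and 5.43 FPKM.

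Adipsin followed the same libraries at a higher level. Cfd stood at 6.94, 22.9 and 61.3 FPKM in HSAPN, at 42.5, 181 and 0.415 FPKM in HAPN, at 859 FPKM in HFD 1/2 and 2.15 FPKM in HFD 3, and at 80.2, 240.1 and 681 FPKM in WT. No WT library was low, whereas HAPN 3 and HFD 3 were, and WT overlapped HAPN and HFD. All 3 HSAPN libraries lay below all 3 WT libraries, a pair of groups that differs in both diet and genotype and was not tested. The share of all tested genes that separate in that pair was not counted. In HSAPN against HAPN, also 3 against 3 libraries, 17.5% of tested genes separated. The span from HAPN 3 to HFD 1/2 was 2069-fold, with an exact 95% interval of 950 to 5640 from 6 and 12531 reads. Cfd exceeded Adipoq in all 11 libraries. Group means were 30.4 ± 28.0 FPKM in HSAPN, 74.5 ± 94.3 FPKM in HAPN, 430 ± 606 FPKM in HFD (n = 2) and 334 ± 311 FPKM in WT (SD, n = 3 otherwise).

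Resistin ranked the 11 libraries in exactly the order of adipsin. Retn stood at 0.359, 0.722 and 1.95 FPKM in HSAPN, at 1.60, 4.23 and 0.121 FPKM in HAPN, at 29.4 FPKM in HFD 1/2 and 0.228 FPKM in HFD 3, and at 1.95, 6.06 and 20.9 FPKM in WT. The highest HSAPN library, at 1.946 FPKM, lay just below the lowest WT library, at 1.954 FPKM, and the other groups overlapped WT. These 2 values rest on 51 and 54 reads. Their exact 95% intervals, 1.45 to 2.56 and 1.47 to 2.56 FPKM, overlap almost wholly, so their order lies within counting error. As for Cfd, HSAPN against WT was not tested, and the share of all tested genes that separate there was not counted. The highest and lowest libraries were again HFD 1/2 and HAPN 3, which differed 243-fold (exact 95% interval 82.7 to 1179, from 734 and 3 reads). Group means were 1.01 ± 0.831 FPKM in HSAPN, 1.98 ± 2.08 FPKM in HAPN, 14.8 ± 20.6 FPKM in HFD (n = 2) and 9.62 ± 9.95 FPKM in WT (SD, n = 3 otherwise).

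Leptin was near the limit of detection. Lep stood at 0, 0.0340 and 0.108 FPKM in HSAPN (0, 2 and 6 reads), at 0.0551, 0.820 and 0.0380 FPKM in HAPN (3, 49 and 2 reads), at 1.44 FPKM in HFD 1/2 (77 reads) and 0 FPKM in HFD 3, and at 0, 0.0333 and 0.438 FPKM in WT (0, 2 and 25 reads). HFD 1/2 was the only library above 1 FPKM, and HAPN 2 and WT 3 were the only others with more than 6 reads. A count of 0 allows up to 3 reads, which is 0.0506 FPKM in HSAPN 1, 0.0537 FPKM in HFD 3 and 0.0513 FPKM in WT 1. The two-sided exact 95% interval of a count of 0, the kind used for the ratios to Adipoq, reaches 3.69 reads. Lep was below Retn in all 11 libraries.

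T-cadherin was steady beside the hormones. Cdh13 stood at 1.85, 2.56 and 2.87 FPKM in HSAPN, at 1.89, 2.94 and 1.91 FPKM in HAPN, at 5.43 FPKM in HFD 1/2 and 1.73 FPKM in HFD 3, and at 1.26, 3.62 and 4.45 FPKM in WT. Its libraries lay within 4.30-fold of each other (exact 95% interval 3.74 to 4.97, from 965 reads in HFD 1/2 and 247 in WT 1), and all groups overlapped. Cdh13 exceeded Adipoq in 4 of 11 libraries, which were HSAPN 1, HSAPN 2, HAPN 3 and HFD 3. Group means were 2.43 ± 0.525 FPKM in HSAPN, 2.25 ± 0.601 FPKM in HAPN, 3.58 ± 2.62 FPKM in HFD (n = 2) and 3.11 ± 1.65 FPKM in WT (SD, n = 3 otherwise).

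Set against all tested genes, the hormones were among the most variable. The within-group SD of log2(FPKM + 1) was 3.11 for Cfd, 2.31 for Adipoq and 1.61 for Retn, which ranked 2, 9 and 40 of 1659 genes. That of Cdh13 was 0.52, at rank 415, against a median of 0.35 over all tested genes. In bulk tissue, fewer cells of a type and less RNA per cell cannot be told apart.

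No member passed the threshold of the across-table test, limma on log2(FPKM + 1) with a Benjamini-Hochberg adjusted p under 0.05 over 1659 genes, in any comparison. The background was as low: the genes past that threshold were 0% in HFD against WT, 0.181% in HAPN against HFD, 0.121% in HSAPN against HAPN, 0% in HSAPN against HFD and 0.0603% in the high-fat groups against WT. At an unadjusted limma p under 0.05, the 4 tested members again numbered 0, against 11.4%, 8.62%, 7.84%, 4.04% and 23.6% of all tested genes in those comparisons, in that order. Limma-voom on recovered reads also called 0 members. The comparisons share libraries, with HFD in 4 of the 5 and WT in 2.

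In 0 of the 5 comparisons did the 2 groups of a member separate without overlap. Of all tested genes, 19.3% did so in HFD against WT, 26.3% in HAPN against HFD, 17.5% in HSAPN against HAPN, 19.8% in HSAPN against HFD and 4.04% in the high-fat groups against WT.

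In HFD against WT, the question was what the diet did in wild-type mice. Adipoq differed by -0.26 on the log2(FPKM + 1) scale (SE 1.82, 95% interval -4.34 to 3.83, limma adjusted p = 0.976). Cfd differed by -2.19 (SE 2.45, limma adjusted p = 0.765), Retn by -0.33 (limma adjusted p = 0.941) and Cdh13 by 0.12 (SE 0.44, limma adjusted p = 0.941). Adding 0.1 in place of 1 before the logarithm gave larger differences for Adipoq and Retn, -1.12 and -1.05, and with limma-voom on recovered reads they were -1.38 and -1.25. The HFD group consists of the library with the most Adipoq and the one with the second least. Without HFD 3 the Adipoq difference was 2.90, and without HFD 1/2 it was -3.42. Cfd likewise turned to 1.86 and Retn to 1.98 without HFD 3, Adipoq to 0.81 and Retn to 0.42 without WT 3, and Cdh13 to -0.50 without HFD 1/2 and to -0.26 without WT 1.

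All 3 high-fat groups together were also compared with WT. In the limma estimate each high-fat group counted equally, whatever its number of libraries. With the 8 libraries counted equally, the log2 differences were -1.43 for Adipoq, -3.09 for Cfd, -1.45 for Retn and -0.13 for Cdh13. The values that follow are limma estimates. Adipoq was at 14.9 ± 31.8 FPKM in the 8 high-fat libraries and 21.9 ± 27.8 FPKM in the 3 WT libraries (SD), a log2 difference of -1.30 (SE 1.36, 95% interval -4.34 to 1.75, limma adjusted p = 0.541). It was -2.35 without HFD 1/2 and -2.23 without WT 1, but -0.23 without WT 3 and -0.24 without HFD 3. With a pseudocount of 0.1 it was -1.9996, and with limma-voom -2.16. Cfd had the lowest estimate, -2.99 (SE 1.82, 95% interval -7.09 to 1.11, limma adjusted p = 0.311), which was -1.64 without HFD 3. The estimate for Retn was -1.33 (SE 0.95, 95% interval -3.45 to 0.80, limma adjusted p = 0.378), and it was -2.10 without HFD 1/2, -2.02 without WT 1, -0.57 without WT 3 and -0.56 without HFD 3. Cdh13 differed by -0.10 (SE 0.33, 95% interval -0.83 to 0.63, limma adjusted p = 0.841), and its sign turned without WT 2 (0.03), WT 3 (0.15) or HFD 3 (0.10).

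HAPN and HFD share genotype and diet in the labels. Adipoq differed by -1.28 (SE 1.82, limma adjusted p = 0.738), Cfd by -1.22 (limma adjusted p = 0.802), Retn by -1.30 (limma adjusted p = 0.655) and Cdh13 by -0.38 (limma adjusted p = 0.689). Without HFD 1/2 each of these turned positive, to 1.88 for Adipoq, 2.83 for Cfd, 1.01 for Retn and 0.24 for Cdh13, and without HAPN 3 that of Cfd was 0.77. The median of all tested genes in this comparison was -0.24, and -0.04 after median-ratio scaling.

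HSAPN against HAPN sets the APPL1 knockdown beside wild-type mice on the same diet. Adipoq differed by -0.56 (SE 1.63, 95% interval -4.21 to 3.10), Retn by -0.38 (SE 1.14), Cfd by 0.03 (SE 2.19, 95% interval -4.89 to 4.94) and Cdh13 by 0.08 (SE 0.39, 95% interval -0.80 to 0.96), each with a limma adjusted p of 0.999. HSAPN 1 to 3 lay within the HAPN range for Adipoq, Cfd and Retn. Without HAPN 2 the Adipoq difference was 0.42 and that of Retn 0.16. Cfd was -1.96 without HAPN 3, -0.01 without HSAPN 2 and -0.70 without HSAPN 3, and Cdh13 was -0.01 without HSAPN 3.

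HSAPN and HFD differ in the labels by the knockdown, on the same diet. Adipoq differed by -1.84 (SE 1.82, 95% interval -5.92 to 2.25, limma adjusted p = 0.886), Retn by -1.68 (limma adjusted p = 0.886), Cfd by -1.19 (limma adjusted p = 0.929) and Cdh13 by -0.30 (SE 0.44, limma adjusted p = 0.906). Without HFD 1/2 these were 1.32 for Adipoq, 0.63 for Retn, 2.85 for Cfd and 0.32 for Cdh13. The median of all tested genes here was -0.18, and -0.02 after median-ratio scaling.

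**Figure D2:**
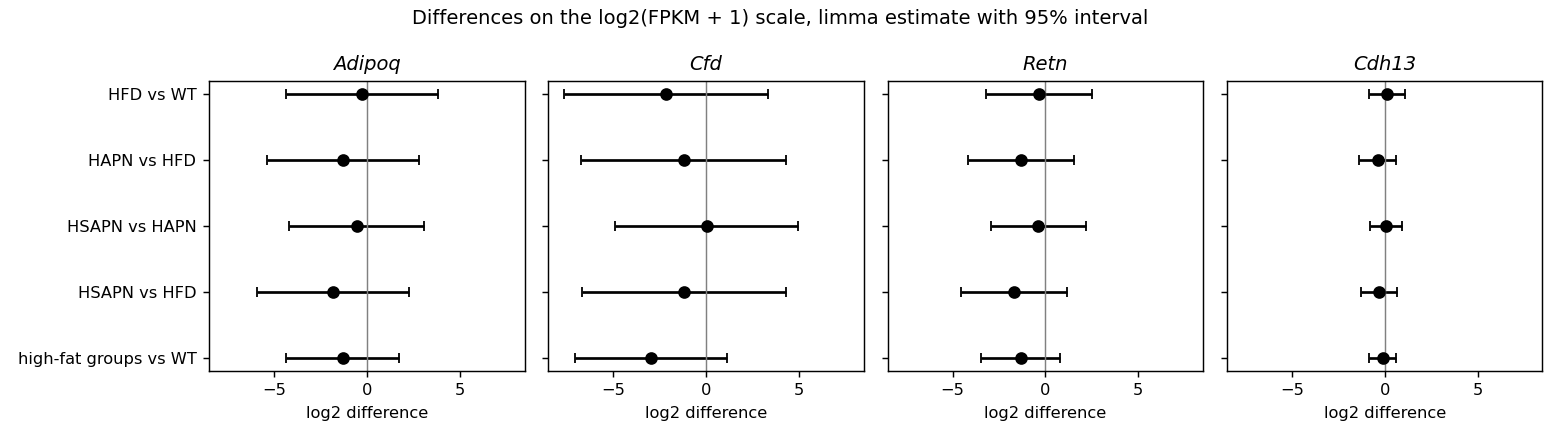
Difference of each tested gene in 5 comparisons on the log2(FPKM + 1) scale, first-named group minus second; points are limma estimates and bars 95% intervals. Every interval crosses 0, and those of Cdh13 are the narrowest.

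Lep, below the filter, was compared by a two-sided exact permutation test of log2(FPKM + 1). Its mean difference was 0.45 in HFD against WT (exact p = 0.7), -0.31 in HAPN against HFD (exact p = 0.7), -0.27 in HSAPN against HAPN (exact p = 0.5) and -0.58 in HSAPN against HFD (exact p = 0.4). Groups of 3 against 3 or 3 against 2 cannot give a p below 0.1. Over the 8 high-fat and 3 WT libraries the difference was 0.12 (exact p = 0.697, smallest possible 0.00606). Without HFD 1/2 the sign turned in HFD against WT (-0.19), HAPN against HFD (0.33), HSAPN against HFD (0.07) and the high-fat groups against WT (-0.02). Without HAPN 2 the difference in HSAPN against HAPN was -0.00034.

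Across libraries the hormones varied together. Over the 11 libraries, Pearson r of log2(FPKM + 1) was 0.983 between Adipoq and Retn, 0.938 between Adipoq and Cfd, and 0.926 between Retn and Cfd. Their permutation p-values, adjusted by Benjamini-Hochberg over the 10 pairs of members, were 0.0001, 0.0003 and 0.000433 (raw 1e-05, 6e-05 and 0.00013; 1e-05 is the smallest that 100000 permutations can give). Spearman rho was 0.964, 0.964 and 1 in the same pairs, with adjusted permutation p of 5e-05, 0.0001 and 5e-05. Adipoq and Lep correlated at r = 0.840 and rho = 0.743 (permutation p 0.00264 and 0.0121, adjusted 0.0044 and 0.016). Without HFD 1/2 and WT 3, the libraries farthest from the Adipoq median, r with Adipoq was 0.949 for Retn, 0.939 for Cfd and 0.673 for Lep, each with an adjusted permutation p under the threshold (0.00103, 0.00103 and 0.0232). The rank correlation of Lep with Adipoq lost its call there (rho = 0.5425, adjusted permutation p 0.175) and also without WT 3 (0.0625), HFD 1/2 (0.0625) or HAPN 2 (0.0603) alone.

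Deviations within groups were correlated as well. When each library was taken as its deviation from its group mean, r with Adipoq was 0.992 for Retn, 0.956 for Cfd, 0.941 for Lep and 0.899 for Cdh13. All 432 arrangements of libraries within groups were listed, and the exact p was 0.00231 for each of the first 3, the smallest it can be, and 0.0162 for Cdh13 (adjusted 0.00463 and 0.0203). The groups hold 2 or 3 libraries each, too few for a correlation in each group.

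T-cadherin followed adiponectin less firmly than resistin and adipsin did. Its r with Adipoq was above that of Lep over the 11 libraries, and below that of Lep as deviations from group means. Adipoq and Cdh13 correlated at r = 0.883 and rho = 0.809 over the 11 libraries (permutation p 0.00039 and 0.00408, adjusted 0.000975 and 0.00978). Without both HFD 1/2 and WT 3, r was 0.682 (permutation p 0.043, adjusted 0.0537), and the call was lost. It held without HFD 1/2 alone (r = 0.815, adjusted permutation p 0.0109) and without WT 3 alone (r = 0.854, adjusted permutation p 0.00518). Without WT 1, r of Cdh13 rose to 0.945 with Adipoq, 0.955 with Retn and 0.902 with Cfd. Cdh13 correlated at r = 0.868 with Retn, 0.751 with Cfd and 0.751 with Lep (adjusted permutation p 0.00126, 0.0104 and 0.00889), and rho was 0.736, 0.736 and 0.798. The rank correlations with Retn and Cfd lost their call (rho = 0.6485 each) without WT 2, WT 3, HFD 1/2 or HAPN 2 alone. The call with Lep was lost without HFD 1/2 (r = 0.564, adjusted permutation p 0.0897). Lep correlated at r = 0.786 with Retn and 0.667 with Cfd (adjusted permutation p 0.0113 and 0.0235, rho 0.587 in both, adjusted 0.0641), and both calls were lost without HFD 1/2 (r = 0.613 and 0.562, adjusted permutation p 0.0844 and 0.0897).

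**Figure D3:**
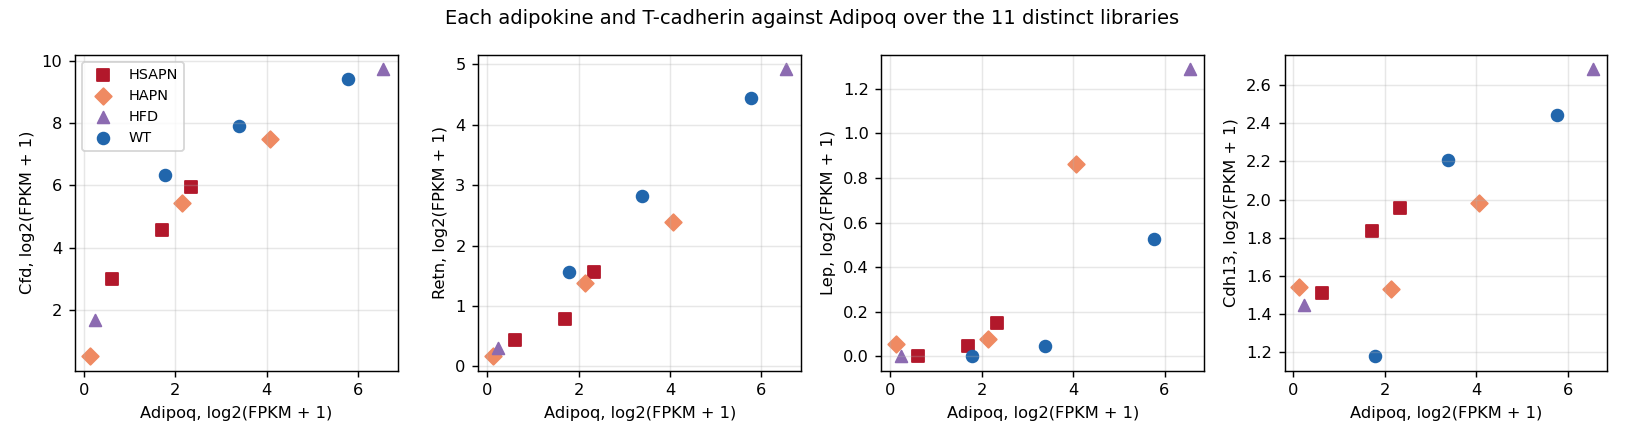
Cfd, Retn, Lep and Cdh13 (y axes) against Adipoq (x axes), all as log2(FPKM + 1), 1 point per distinct library and colours for groups. Retn and Cfd rise with Adipoq along the whole range, while Lep leaves 0 mainly in HFD 1/2, HAPN 2 and WT 3.

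The proportions among the hormones were not fixed. This ratio was looked at after the levels were seen and is given with exact 95% intervals that cover counting error only. Cfd over Adipoq, as a ratio of FPKM, was 13.02, 10.1 and 15.1 in HSAPN, 12.53, 11.5 and 4.49 in HAPN (the last from 2 Adipoq reads), 9.27 in HFD 1/2 and 12.4 in HFD 3. In WT it was 32.9 (25.2 to 43.2), 25.4 (22.3 to 29.2) and 12.7 (11.9 to 13.4). WT 1 and WT 2 thus had more adipsin per adiponectin than the high-fat point values, while WT 3 lay among them. HSAPN 1 (7.31 to 25.2), HAPN 3 (0.803 to 45.5) and HFD 3 (4.40 to 48.0) cannot be placed on either side, as their intervals reach those of WT 1 and WT 2.

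Leptin per adiponectin had another order. Lep over Adipoq was 0.0520 (0.0379 to 0.0703) in HAPN 2, 0.0156 (0.0123 to 0.0197) in HFD 1/2 and 0.00815 (0.00525 to 0.0121) in WT 3, the 3 libraries with the most Lep reads, and these intervals do not overlap. The remaining libraries had 6 Lep reads or fewer and wide intervals. Retn over Adipoq was 0.673, 0.318 and 0.480 in HSAPN, 0.472, 0.268 and 1.31 in HAPN, 0.317 in HFD 1/2 and 1.31 in HFD 3, and 0.800, 0.642 and 0.388 in WT. Retn exceeded Adipoq only in HAPN 3 and HFD 3, which had 2 and 4 Adipoq reads.

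**Figure D4:**
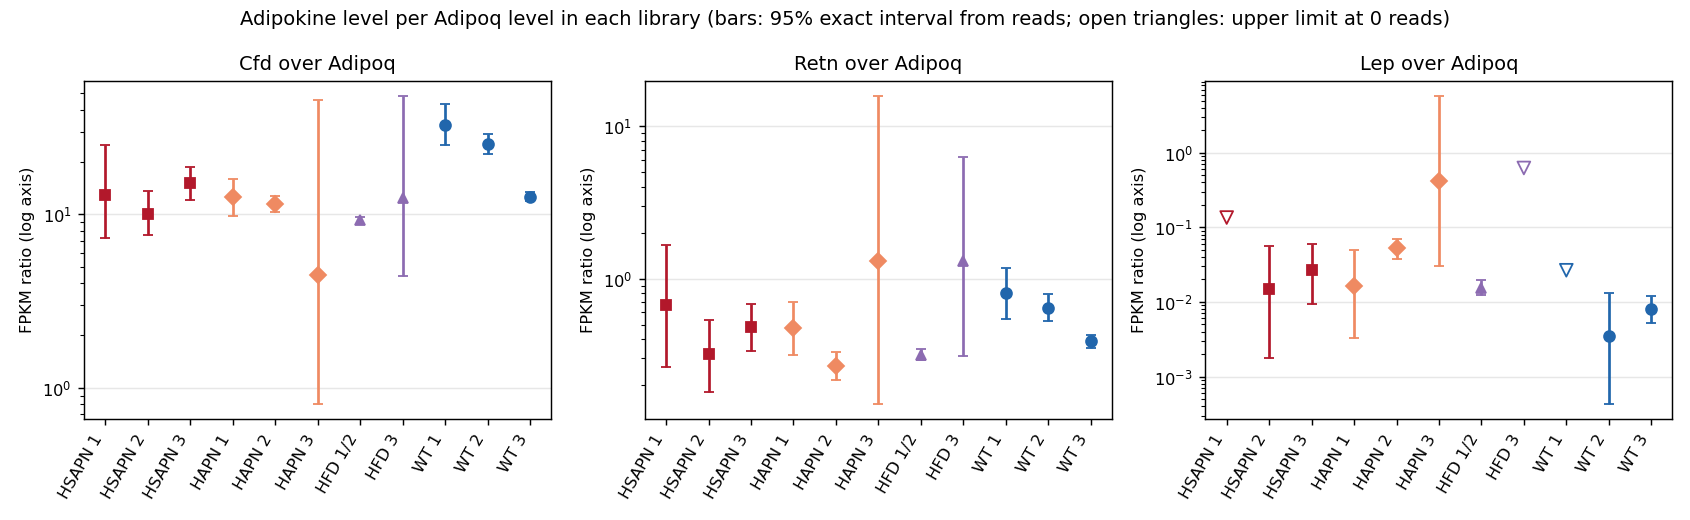
FPKM of Cfd, Retn and Lep over FPKM of Adipoq in each library (log axes); bars are exact 95% intervals from read counts and open triangles the upper limit where no Lep read was found. WT 1 and WT 2 stand highest for Cfd, and HAPN 2 stands above HFD 1/2 and WT 3 for Lep.

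Genes of the fat cell were the ones whose pattern was most like that of adiponectin. By Pearson r over the 11 libraries, among 1383 named genes ranked, the 5 closest to Adipoq were Car3 (0.993), a carbonic anhydrase abundant in fat, Fabp4 (0.985), the fat cell fatty acid carrier, Plin1 (0.979) and Cidec (0.9753), proteins of the lipid droplet, and Cyp2e1 (0.977), a cytochrome P450. Car3 was also the closest to Retn (0.982) and to Cfd (0.965). For Retn it was followed by Dgat2 (0.979), an enzyme of triglyceride synthesis, Fabp4 (0.9745), Mrap (0.970), an accessory protein of the ACTH receptor, and Pck1 (0.969), which feeds glycerol synthesis in fat. An r above 0.9 was reached by 47 of 1655 other tested genes with Adipoq (2.84%), 60 with Retn, 18 with Cfd, 30 with Cdh13 and 3 with Lep, and the median r with Adipoq over all tested genes was 0.276. These correlations share their 11 libraries and are descriptions.

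The genes closest to adipsin included markers of other tissues. Besides Car3, genes close to Cfd were Ehhadh (0.941), a peroxisomal enzyme, Bpifa1 (0.939), a secreted airway protein, and Tnnt2 (0.922), cardiac troponin T. Bpifa1 ran from 2.81 to 10735 FPKM and Tnnt2 from 0.752 to 64.6 FPKM. The 3 cardiac muscle markers tested, Tnnt2, Tnni3 and Myl4, had a median r of 0.911 with Cfd, 0.849 with Retn and 0.843 with Adipoq. They summed to 15.6 to 154 FPKM in HSAPN, 7.79 to 129 FPKM in HAPN, 7.92 to 389 FPKM in HFD and 48.3 to 310 FPKM in WT. Their part in the result was not tested.

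Cdh13 and Lep had other neighbours. Cdh13 was most like Mfn2 (0.967), a mitochondrial fusion protein, Agpat2 (0.959), an enzyme of triglyceride synthesis, Sync (0.954), a muscle intermediate filament protein, Bzw2 (0.952) and Lrrc24 (0.9501). Lep was most like Hadhb (0.913) and Acadm (0.8998), enzymes of fatty acid oxidation, Ormdl3 (0.910), a regulator of sphingolipid synthesis, Acacb (0.908), an acetyl-CoA carboxylase, and Cidec (0.895).

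Of 38 fat cell markers listed, none of which is a member, 33 were in the table and 31 were tested. Their median r was 0.868 with Adipoq, 0.859 with Retn, 0.805 with Cdh13, 0.736 with Cfd and 0.693 with Lep, and 10 of 31 exceeded 0.9 with Adipoq. Plin1 ran from 0.0129 to 31.8 FPKM, Car3 from 0.757 to 384 FPKM and Fabp4 from 2.10 to 216 FPKM. Transcription factors of the fat cell followed Adipoq less closely than these. Pparg ran from 2.66 to 6.71 FPKM with r = 0.390 to Adipoq, and Cebpa from 41.6 to 68.5 FPKM with r = -0.0153. Cardiac muscle markers had a median r of 0.843 with Adipoq (3 tested), close to that of fat cell markers, and the airway gene Bpifa1 had r = 0.849. Brown fat markers had a median r of 0.653 with Adipoq (10 tested), smooth muscle markers 0.574 (11 tested), fibroblast markers 0.444 (8 tested), platelet markers 0.311 (12 tested) and erythrocyte markers 0.202 (8 tested).

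**Figure D5:**
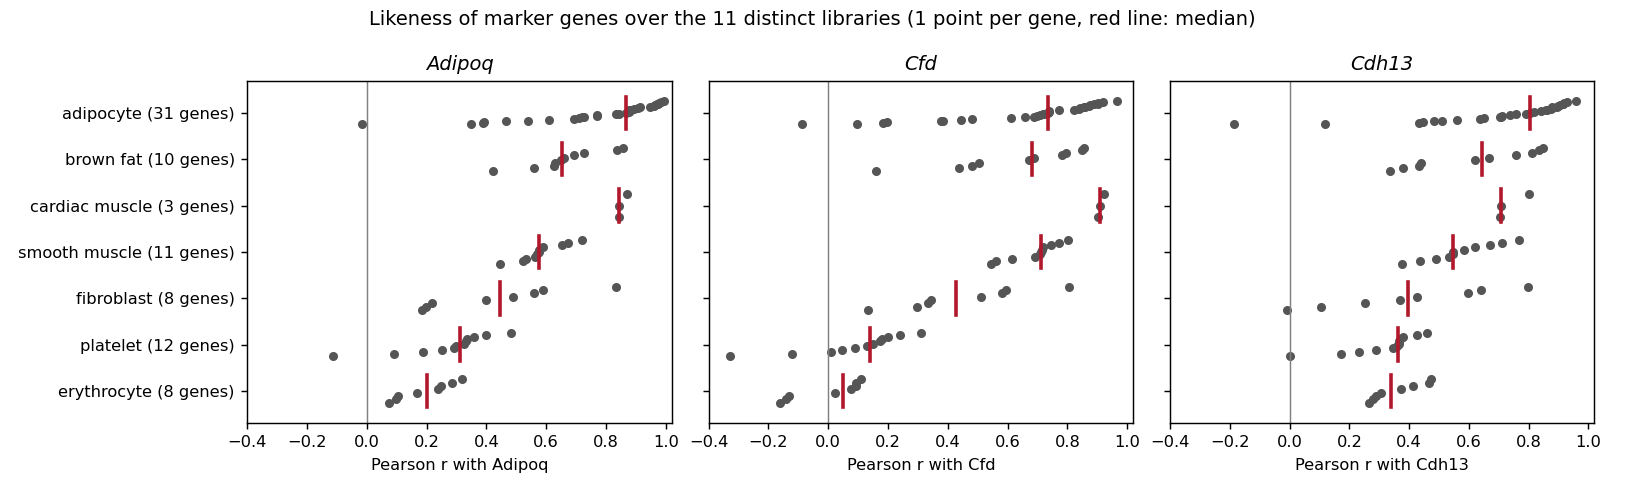
Pearson r of each marker gene with Adipoq, Cfd and Cdh13 over the 11 distinct libraries, by cell type list; 1 point per gene and red lines for list medians. Fat cell markers lie highest for Adipoq and Cdh13, with medians of 0.868 and 0.805, and the 3 cardiac genes highest for Cfd, at 0.911. The cardiac genes come next for Adipoq and Cdh13, at 0.843 and 0.706.

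Of the 31 tested fat cell markers, 0 passed the threshold (limma, adjusted p under 0.05) in any comparison, 1 to 3 per comparison had an unadjusted limma p under 0.05, and limma-voom called 0. Their median log2 difference, beside that of all tested genes, was 0.16 beside 0.07 in HFD against WT (21 of 31 positive), -0.59 beside -0.24 in HAPN against HFD (28 of 31 negative), -0.16 beside 0.03 in HSAPN against HAPN (21 negative), -0.76 beside -0.18 in HSAPN against HFD (29 negative) and -0.43 beside -0.06 in the high-fat groups against WT (22 negative). The marker median had the sign of the Adipoq difference in 4 of the 5 comparisons, and the part of the markers in the values of the members was not tested.

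Adipoq, Cfd and Retn were therefore also expressed relative to the mean log2 level of the 31 markers in the same library, with a pseudocount of 1, while Lep, below the filter, was not. The marker mean includes genes that varied little. It ran from 2.17 in HAPN 3 to 4.56 in HFD 1/2, while Adipoq ran from 0.127 to 6.55. The relative level of Adipoq was still 1.99 in HFD 1/2, -1.94 in HFD 3 and -2.04 in HAPN 3. These relative levels therefore cannot be read as levels per amount of fat. In the high-fat groups against WT, Adipoq differed by -0.998 on this relative log2 scale (two-sided exact permutation p = 0.321), Cfd by -2.66 (exact p = 0.0970) and Retn by -1.02 (exact p = 0.0788). Adjusted over the 15 tests made, these were 1, 0.727 and 0.727. Cfd stood at 2.02 ± 2.36 in the 8 high-fat libraries and 4.68 ± 0.692 in the 3 WT libraries (SD, log2 above the marker mean). Without HFD 1/2, the unadjusted exact p was 0.0417 for Cfd and 0.0167 for Retn. With each library left out in turn, it rose to as much as 0.222 for Cfd and 0.289 for Retn. The Adipoq difference ran from -1.53 without WT 1 to -0.38 without WT 3, and with a pseudocount of 0.1 it was -1.52 and that of Retn -1.64. In the other 4 comparisons the exact p ran from 0.4 to 1, where no value under 0.1 is possible.

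Related genes, taken from lists by function, gave 0 calls in every list and comparison, by limma and by limma-voom. At an unadjusted limma p under 0.05 a list held at most 3 of its tested genes, that many among other adipokines in the high-fat groups against WT. Of 37 other adipokines listed, 11 were in the table and 10 were tested. Lcn2, lipocalin 2, was at 62.4 ± 39.8 FPKM in HSAPN, 26.4 ± 12.1 FPKM in HAPN, 16.8 ± 6.10 FPKM in HFD and 15.3 ± 6.04 FPKM in WT, and its log2 difference was 0.995 in HSAPN against HAPN (limma adjusted p = 0.878). Angptl4, an inhibitor of lipoprotein lipase, was at 32.3 ± 5.64 FPKM in HFD and 7.92 ± 7.02 FPKM in WT, a log2 difference of 2.17 (limma adjusted p = 0.300). Rbp4, the retinol carrier, differed by -0.89 between the high-fat groups and WT (limma adjusted p = 0.133), and Fstl1 by -0.44 (limma adjusted p = 0.231). Agt, angiotensinogen, followed Adipoq at r = 0.924.

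Retnla, the only other resistin family gene in the table and known in mice as a marker of alternatively activated macrophages, did not follow Retn (r = -0.256). It was at 1555 ± 1117 FPKM in HSAPN, 301 ± 139 FPKM in HAPN, 165 ± 49.5 FPKM in HFD and 662 ± 504 FPKM in WT. Its log2 difference was 2.10 in HSAPN against HAPN (limma adjusted p = 0.519) and 2.91 in HSAPN against HFD (limma adjusted p = 0.828).

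Among 30 genes with a C1q domain or of that family, 7 were in the table and 6 were tested. C1qtnf9, a close relative of adiponectin, followed Adipoq at r = 0.902. C1qb, a subunit of complement C1q, followed it at 0.274, and C1qtnf12 at 0.651. The median log2 difference of the 6 was 0.23 in HSAPN against HAPN beside 0.03 over all tested genes. Of 32 complement genes 5 were in the table, and of the 3 tested Fcna, ficolin A, followed Retn at r = 0.901 and Adipoq at 0.870, while Cd59a, an inhibitor of the membrane attack complex, followed Adipoq at 0.678.

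Receptor and adaptor genes were sparse. Of 19 listed, 5 were in the table and 3 tested. Dcn, decorin, a matrix protein of which a mouse isoform binds resistin, was at 31.6 ± 8.16 FPKM in HSAPN, 34.2 ± 2.39 FPKM in HAPN, 55.2 ± 30.0 FPKM in HFD and 62.7 ± 1.23 FPKM in WT, a log2 difference of -0.72 between the high-fat groups and WT (limma adjusted p = 0.143). Mmd and Paqr6, of the family of the adiponectin receptors, differed by 0.33 and 0.21 in HSAPN against HAPN (limma adjusted p = 0.872 and 0.999). No gene of the 11 listed for leptin signalling was in the table.

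Of 30 genes downstream of adiponectin, 8 were in the table and 6 were tested. Acsl1, a fatty acyl-CoA synthetase, followed Adipoq at r = 0.889 and Irs2, an insulin receptor substrate, at 0.275. In HSAPN against HAPN the median log2 difference of the 6 was -0.12, beside 0.03 over all tested genes, and Irs2 differed by 0.08 (limma adjusted p = 0.999). Among 4 tested genes of adiponectin folding and transcription, Atf3, a stress-induced repressor, differed by -1.20 in HSAPN against HAPN (limma adjusted p = 0.519), with 3.48 ± 0.706 FPKM in HSAPN and 10.2 ± 6.42 FPKM in HAPN, and Cebpb had r = -0.565 with Adipoq.

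Of 60 other cadherin genes, 15 were in the table and 3 were tested. Cdh26, Pcdh7 and Clstn3 followed Cdh13 at r = 0.837, 0.784 and 0.584. In the high-fat groups against WT they differed by -1.21, -0.53 and -0.18, beside -0.10 for Cdh13, with limma adjusted p-values of 0.466, 0.266 and 0.676.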

How the data were processed

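The authors deposited 1 table per sample with a value per gene symbol in FPKM, per the labels and the values. mRNA libraries were made from TRIzol RNA with a directional NEB kit, per the labels' protocols. The tools listed in the submitters' processing notes are DESeq 1.8.3 and featureCounts 1.5.0-p3, and the build is GRCm38. Not given in the sources used here were the aligner, the annotation release, the strand setting and the rule that chose the table's genes. FPKM cannot be told from a TPM scaling by its whole reads, and the table accounts for 12.0 to 17.6% of each library's reads. Levels of paralogs and of overlapping genes depend on that counting.

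From these values, reads were recovered with exonic lengths of GENCODE M21 (3407 symbols matched). A symbol listed 2 times and 4 symbols turned into dates were left out or not named. Genes that reached 1 FPKM in 3 or more distinct libraries were tested with limma 3.58.1 (trend, R 4.3.3) on log2(FPKM + 1), as a mean for each of 4 groups (7 residual degrees of freedom), and p-values adjusted by Benjamini-Hochberg over 1659 genes. Fold changes on that scale understate changes of low genes. Single values were tested by exact permutation and correlations by 100000 permutations (SciPy 1.17.1, NumPy 2.4.6, pandas 2.3.3, Python 3.11.15), and figures were drawn with matplotlib 3.10.9. Read intervals are exact (95%) and cover counting error only. The test was tried on simulated data first. Same-numbered libraries were checked for pairing and did not consistently deviate together, a check that groups of 2 or 3 libraries cannot settle. Alternatives were other filters, pseudocounts, scalings, weights, a count model, a replicate block, the identical libraries entered as 2 and each library left out.

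Named genes were every member, the 5 tested genes most like each member by Pearson r, and up to 4 genes of each list with the highest mean FPKM, of which some are not reported here. C1qtnf9, Agt, Ucp1, Acta2, Cnn1, Myh11, Tagln, Tnni3 and Myl4 and the ratios to Adipoq were chosen after their values were seen. The members and lists were chosen with earlier results of these data known, so no count is independent evidence.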

Additional observations from a re-analysis of the deposited data

Results flagged for a closer look

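Among the 8 high-fat libraries (3 HSAPN, 3 HAPN and 2 HFD), the library HFD 1/2 stood far above the rest for 4 of the 5 genes, at 92.6 FPKM for Adipoq, 5.43 FPKM for Cdh13, 29.4 FPKM for Retn and 859 FPKM for Cfd. Its gap to the next library took 0.831, 0.672, 0.860 and 0.790 of the whole range, beyond the critical value of 0.526 for 8 samples. Lep, at 0.432 of its range, did not. These gaps were taken on FPKM, which span a wide range here. On the log2(FPKM + 1) scale, tried after seeing the data, the gap was 0.5704 of the range for Cdh13 and 0.533 for Retn, still beyond the critical value, but 0.386 for Adipoq and 0.2425 for Cfd, below it. Chance alone flags about 1 in 20 groups of normally distributed values, which these FPKM need not be, and the 4 flags are not independent, since they concern 1 library and genes that vary together. In that library the 33 fat cell markers in the table also had their highest sum, 1380 FPKM, and the part of the markers in these values was not tested. This library is also the one deposited under 2 replicate numbers.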

How the results depend on the processing

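The counts of genes past the adjusted p of 0.05 were small and moved with most settings. Without the filter on low values they were 2 in HFD against WT, 5 in HAPN against HFD, 1 in HSAPN against HAPN, 2 in HSAPN against HFD and 3 in the high-fat groups against WT. With the identical HFD libraries entered as 2 samples they were 6, 10 and 2 in HFD against WT, HAPN against HFD and HSAPN against HFD, and 8 in the high-fat groups against WT. In the high-fat groups against WT the count was 0 with at least 5 FPKM, with a pseudocount of 0.1 and with median-ratio scaling, and 263 with array weights. HAPN against HFD gave 5 with median-ratio scaling and 0 with array weights, limma-voom, a replicate block or only its own groups in the fit. HSAPN against HAPN gave 79 with array weights, 1 with limma-voom and 0 with only its own groups, and HSAPN against HFD gave 1 with only its own groups. No member passed the threshold under any setting (lowest adjusted p 0.285, and 0.109 with a library left out). Signs turned with the identical libraries as 2 samples for Adipoq (0.80) and Retn (0.44) in HFD against WT, with median-ratio scaling for Cfd (-0.0044) in HSAPN against HAPN, and with array weights for Cfd in HAPN against HFD (0.63) and for Cdh13 (-0.10) and Cfd (-1.89) in HSAPN against HAPN. Over the planned settings that keep every library, the log2 differences of the members ran, in HFD against WT, -1.38 to 0.80 for Adipoq, -2.47 to -0.84 for Cfd, -1.25 to 0.44 for Retn, 0.45 to 1.03 for Lep, 0.033 to 0.33 for Cdh13; in HAPN against HFD, -2.33 to -0.081 for Adipoq, -2.57 to 0.63 for Cfd, -2.07 to -0.64 for Retn, -0.54 to -0.31 for Lep, -0.59 to -0.18 for Cdh13; in HSAPN against HAPN, -1.78 to -0.19 for Adipoq, -1.89 to 0.44 for Cfd, -1.09 to -0.35 for Retn, -0.94 to -0.27 for Lep, -0.10 to 0.11 for Cdh13; in HSAPN against HFD, -2.89 to -1.27 for Adipoq, -2.54 to -0.99 for Cfd, -2.45 to -1.49 for Retn, -1.48 to -0.58 for Lep, -0.51 to -0.14 for Cdh13; in the high-fat groups against WT, -2.16 to -0.67 for Adipoq, -3.27 to -2.32 for Cfd, -2.27 to -0.98 for Retn, 0.16 to 0.27 for Lep, -0.14 to -0.036 for Cdh13. These ranges cover the alternatives and leave out the main values. For Lep they mix a limma estimate, made without the filter, with differences that count libraries equally. Its main value in the high-fat groups against WT, 0.12, is of the latter kind. Same-numbered libraries did not consistently deviate together (15 pairs, r -0.592 to 0.499, 4 over 0.1). With 2 or 3 libraries per group, this check cannot exclude a pairing or a shared batch, and the numbers were treated as names. A replicate block turned Adipoq in HFD against WT to 0.051. With each library left out in turn, the counts ran 0 to 27 in HFD against WT, 0 to 6 in HAPN against HFD, 0 to 3 in HSAPN against HAPN, 0 to 3 in HSAPN against HFD, 0 to 240 in the high-fat groups against WT (27 and 240 without WT 3, and 17 in HFD against WT without HFD 3). A group left with 1 library was assumed to vary like the others. The log2 differences of the members then ran, in HFD against WT, -3.42 to 2.90 for Adipoq, -6.23 to 1.86 for Cfd, -2.65 to 1.98 for Retn, -0.19 to 1.10 for Lep, -0.50 to 0.74 for Cdh13; in HAPN against HFD, -4.44 to 1.88 for Adipoq, -5.26 to 2.83 for Cfd, -3.62 to 1.01 for Retn, -0.96 to 0.33 for Lep, -0.9998 to 0.24 for Cdh13; in HSAPN against HAPN, -1.55 to 0.42 for Adipoq, -1.96 to 1.54 for Cfd, -0.95 to 0.16 for Retn, -0.41 to -0.00034 for Lep, -0.013 to 0.23 for Cdh13; in HSAPN against HFD, -4.99 to 1.32 for Adipoq, -5.24 to 2.85 for Cfd, -3.997 to 0.63 for Retn, -1.22 to 0.065 for Lep, -0.92 to 0.32 for Cdh13; in the high-fat groups against WT, -2.35 to -0.23 for Adipoq, -4.34 to -1.64 for Cfd, -2.10 to -0.56 for Retn, -0.020 to 0.29 for Lep, -0.49 to 0.15 for Cdh13. Levels relative to fat cell markers ran, in HFD against WT, -2.38 to 1.55 for Adipoq, -5.20 to 0.50 for Cfd, -1.61 to 0.63 for Retn; in HAPN against HFD, -2.53 to 1.40 for Adipoq, -3.35 to 2.35 for Cfd, -1.70 to 0.54 for Retn; in HSAPN against HAPN, -1.17 to 0.31 for Adipoq, -1.59 to 1.42 for Cfd, -0.58 to 0.041 for Retn; in HSAPN against HFD, -2.95 to 0.98 for Adipoq, -3.19 to 2.51 for Cfd, -1.95 to 0.29 for Retn; in the high-fat groups against WT, -1.53 to -0.38 for Adipoq, -3.12 to -2.14 for Cfd, -1.31 to -0.72 for Retn. Some correlations lost their call without the 2 libraries farthest from the median of the first-named gene. These were Adipoq with Cdh13 (0.682, without HFD 1/2 and WT 3), Cdh13 with Lep (0.543, without HFD 1/2 and WT 1) and Lep with Cfd (0.623, without HFD 1/2 and HAPN 2). As deviations from group means, the call was lost for Lep with Cfd (0.882). With a library left out, r ran 0.564 to 0.838 for Cdh13 with Lep, 0.613 to 0.848 for Lep with Retn, 0.562 to 0.746 for Lep with Cfd. The cause of these changes was not tested. Read depth limits Lep above all, with 0 to 6 reads in 8 of 11 libraries.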

Other observations

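Marker lists of other cell types gave no call. All 11 tested smooth muscle markers were lower in the high-fat groups than in WT by estimate (median log2 difference -1.32, 7 with an unadjusted limma p under 0.05), beside -0.06 over all tested genes. In this comparison 23.6% of all tested genes had an unadjusted limma p under 0.05. All 12 platelet markers were higher by estimate (median 1.05, 10 with an unadjusted limma p under 0.05), and so were all 8 erythrocyte markers (median 1.52, 6 of them). The 8 fibroblast markers had a median of -0.66, with 7 negative. None of these genes passed an adjusted limma p of 0.05, and limma-voom called 0 of them. Erythrocyte markers summed to 3183 to 4901 FPKM in HSAPN, 1313 to 3919 FPKM in HAPN, 2207 to 3860 FPKM in HFD and 413 to 3216 FPKM in WT. Against Adipoq, the erythrocyte list had a median r of 0.202 and the platelet list 0.311.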
